A study of Rattus norvegicus with 8 samples.

Results

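Th and Ddc encode the enzymes that carry tyrosine to dopamine, and their transcript ends were counted in the hypothalamus of rats on an obesity-inducing or a standard diet. All rows of the deposited table with the symbol Th or Ddc were taken, which gave 3 of 73922 polyadenylation sites, 1 for Th and 2 for Ddc. The libraries came from 8 adult male Long-Evans rats, made by whole transcriptome termini site sequencing (WTTS-seq), which counts RNA molecules at the sites where their poly(A) tails begin. In the control group 4 rats ate standard chow with 0.51 kcal/g from fat, and in the obesity group 4 rats had free access to a high fat diet with 1.71 kcal/g from fat, in both cases for 36 days. The libraries held 1417531 to 1957726 reads. Both groups were of the same strain, and the labels give no body weights, so obesity is used here as the label of the diet group.

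Tyrosine hydroxylase (Th) turns tyrosine into L-DOPA and is the rate-limiting step of catecholamine synthesis. Aromatic L-amino acid decarboxylase (Ddc) then turns L-DOPA into dopamine, and it also makes serotonin from 5-hydroxytryptophan. Th therefore marks catecholamine neurons, while Ddc is shared with serotonin neurons and is also found in cells without Th. In the hypothalamus, dopamine neurons of the arcuate nucleus restrain prolactin release from the pituitary, and other groups lie in the periventricular zone and zona incerta.

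The promoters of both genes were compared first, because the genes share a pathway but not a start-site layout. RefSeq (GRCr8) lists 1 start for Th and 3 for Ddc. Windows of 250 bases before to 50 bases after each start were searched on both strands for the cAMP response element TGACGTCA, which CREB proteins bind and which reads the same on both strands, and for AAAGGTCA, the element bound by single NR4A receptors such as Nr4a2. The letters of the former were in 1 of 1 Th windows, in 0 of 3 Ddc windows and in 1.83% of all 33469 promoter windows. The latter were in 0 of 1 Th windows, in 1 of 3 Ddc windows and in 1.43% of all windows. The 2 matches, which did not overlap another searched motif, are shown on the strand of the gene with the matching letters in capitals. The Th window lies at chr1:207508269-207508298 (GRCr8, minus strand) and its match begins at -69 from the start. The Ddc window lies at chr14:90682838-90682867 (GRCr8, minus strand), with a match on the opposite strand that begins at -73.
Th: cagaggggcttTGACGTCAgcctggccttt
Ddc: ctggacttcctTGACCTTTataccatcaga
These matches describe letters only, and no binding was measured.

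The first question was whether the output of either gene differed between diets. Th was lower in the obesity libraries, at 11.9 ± 11.1 CPM against 39.2 ± 7.11 CPM in control (SD, n = 4), while Ddc stood at 6.76 ± 4.52 and 7.76 ± 2.82 CPM. CPM is the read count on the usual depth-scaled unit, here relative to the TMM-adjusted total of the gene sums. Each read marks the end of 1 RNA molecule fragment, so no scaling by gene length was made. By mean CPM over all libraries, Th ranked 5355 and Ddc 9257 among 12255 genes. In whole tissue, fewer neurons that express a gene and less RNA per neuron cannot be told apart.

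Th, the rate-limiting enzyme, had a single site on chromosome 1 (216073025 to 216073031, minus strand, Rnor_6.0). The control libraries, in the order of their numbers 1 to 4, gave 68, 46, 47 and 52 Th reads, and the obesity libraries in the same order gave 12, 12, 47 and 2. Scaled to library size, control libraries 1 to 4 reached 48.1, 30.8, 38.2 and 39.5 CPM, whereas the obesity libraries reached 9.01, 9.74, 27.5 and 1.36 CPM. Obesity library 3 stood nearest to the controls, obesity library 4 was almost without Th reads, and the groups did not overlap in CPM, although the read counts themselves touched at 46 and 47. The exact Poisson 95% interval of obesity library 3 was 20.2 to 36.6 CPM and overlapped that of control library 2, at 22.5 to 41.1 CPM. The interval of obesity library 4 was 0.165 to 4.92 CPM and overlapped neither, so these rats of 1 group differed by more than the Poisson error of reads. These intervals cover counting error only and take each read as a separate molecule. That could not be checked, since amplified reads carry no molecular identifiers.

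The log2 fold change of Th was -1.69 (SE 0.54, 95% interval -2.84 to -0.54). Th was lower in 4 of 4 same-numbered pairs, which groups without overlap give under any pairing. It did not pass the threshold of 0.1, with an edgeR quasi-likelihood adjusted p of 0.92 over all genes, although its unadjusted value was the 60th smallest of 12255. In this fit 0 genes (0%) were called, with 626 (5.11%) at an unadjusted p under 0.05, while the DESeq2 Wald test called 4 genes (0.0327%) and gave Th an adjusted p of 0.632. With the library number as a block the log2 fold change was -1.98 (SE 0.46) and Th passed, at an edgeR adjusted p of 0.0882, among the 27 genes (0.22%) called lower and 34 genes (0.277%) called in either direction in that fit. The block call was lost when both libraries numbered 4 were left out (log2 fold change -1.43, edgeR adjusted p 0.593). In the unpaired fit, the log2 fold change was -2.55 without obesity library 3 and -1.31 without obesity library 4, against -1.69 with all libraries. Groups that do not overlap, with obesity lower, were found for 217 genes (1.77%) of the table.

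**Figure D1:**
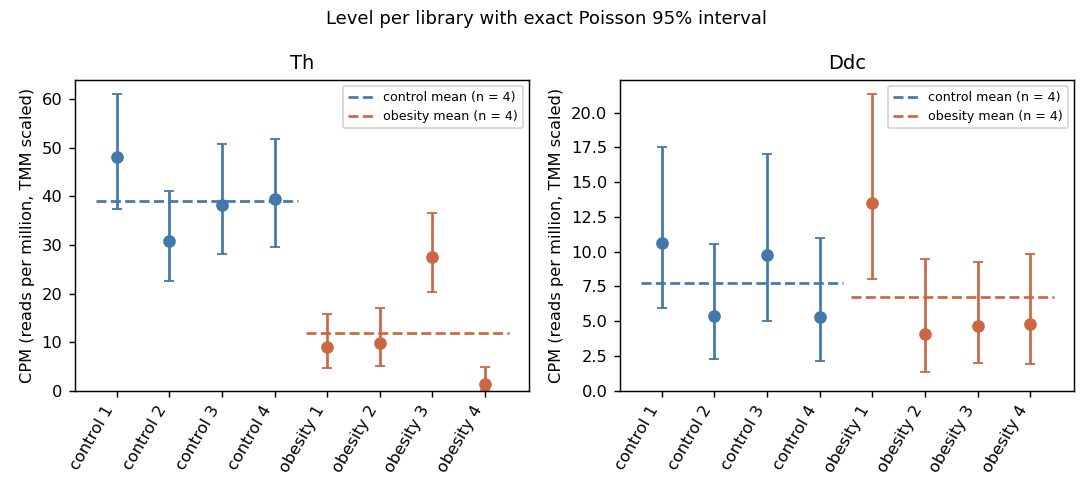
CPM of Th (left) and Ddc (right) in each library, with exact Poisson 95% intervals as bars and group means (n = 4) as dashed lines. The 4 obesity libraries lie between 1.36 and 27.5 CPM for Th, all under the lowest control at 30.8 CPM, while the groups overlap for Ddc.

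**Figure D2:**
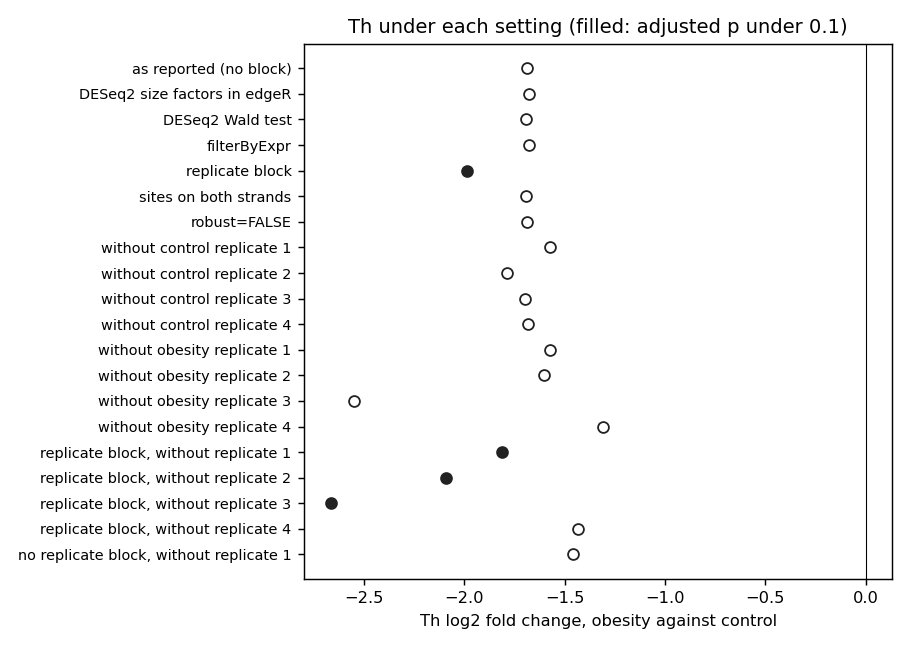
Log2 fold change of Th (x axis) under each fit (y axis), with filled points where the adjusted p was under 0.1. All values are below 0, from -2.66 to -1.31, and the filled points are fits with the library number as a block.

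The same Th site was also tested among single sites. There the log2 fold change stood at -1.72 (SE 0.62) and the edgeR adjusted p at 1, in a table where 0.00135% of 73922 sites were called. With the block they were -2.08 and 0.22, where 0.00541% of sites were called. Th held 286 reads over the 8 libraries, more than 92.3% of all sites. The reads are those of the gene, since Th has no other site.

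Ddc, the decarboxylase, gave 7 to 15 reads per control library and 5 to 18 per obesity library. In CPM the controls stood at 10.6, 5.35, 9.75 and 5.32 and the obesity libraries at 13.5, 4.06, 4.68 and 4.76, in order of number. The groups overlapped throughout, and obesity library 1 was the highest of all. Ddc had a log2 fold change of -0.20 (SE 0.65) and an edgeR adjusted p of 0.991, and -0.29 with the block (adjusted p 0.925). The 95% interval of the difference ran from -1.57 to 1.17, so at this depth neither a fall nor a rise of about that size could be told from no difference. Without obesity library 1 the log2 fold change was -0.77.

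The Ddc reads fell on 2 sites of the minus strand of chromosome 14 (Rnor_6.0). The 3′-most site (91909101 to 91909114) had 44 reads in all, and the other (91928463 to 91928465), 19.4 kb upstream in the direction of transcription, had 36. The median site of the table had 57 reads. Whether the upstream site is exonic or intronic was not determined here. In GRCr8 the annotated span of Ddc overlaps that of Fignl1 on the same strand, so the assignment of reads in the shared stretch is uncertain. Which part of Ddc is shared, and whether it holds either site, was not determined here.

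The 3′-most site was read 1, 6, 8 and 7 times in the controls, in order of number, and 2, 5, 8 and 7 times on the high fat diet. The upstream site was read 14, 2, 4 and 0 times in the controls and 16, 0, 0 and 0 times on the high fat diet. The upstream site was thus read almost entirely in the libraries numbered 1, whatever the diet, and those libraries were the lowest of their groups at the 3′-most site. Of its 36 reads, 30 came from the libraries numbered 1. It held 93.3% of Ddc reads in control library 1 (Wilson 95% interval 70.2% to 98.8%) and 88.9% in obesity library 1 (67.2% to 96.9%). In the other 6 libraries together it held 12.8%, or 6 of 47 reads. In the 4 libraries with a share of 0%, totals of 5 to 8 reads allowed shares up to 32.4% to 43.4% by the same method.

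The use of the Ddc sites was compared between diets with diffSpliceDGE of edgeR. The Simes p was 0.952 (adjusted p 1, with 0% of 7996 genes called), and 0.674 with the block (adjusted p 1, with 0.0125% called). At single sites, the log2 fold change was -0.19 (SE 0.89) for the 3′-most site and -0.39 (SE 1.47) for the upstream site, each with an edgeR adjusted p of 1. Without obesity library 1 the upstream site had a log2 fold change of -5.37 (adjusted p 1), since it was then at 0 reads in every remaining obesity library. That value depends on the prior count of the fit and is no bound. The libraries numbered 1 also stood apart over the whole table, with 14788 and 10659 sites at 0 reads against 4062 to 6622 in the others. The part of this in the Ddc site pattern was not tested.

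**Figure D3:**
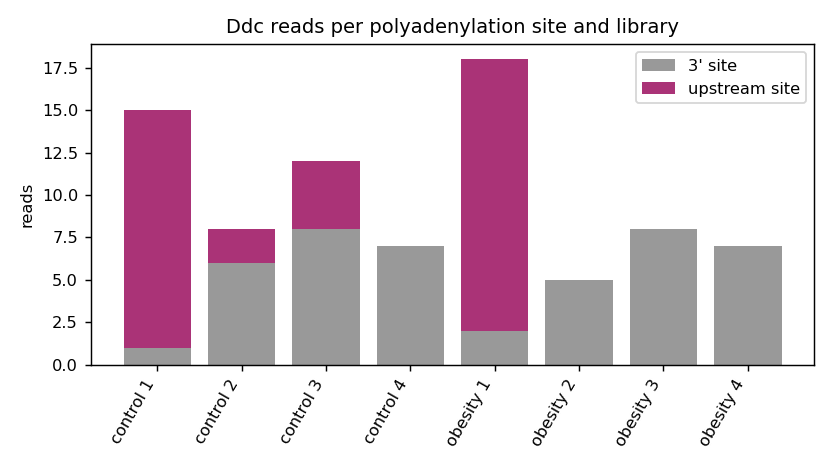
Reads (y axis) at the 3′-most (grey) and upstream (purple) Ddc sites in each library. The upstream site makes up 14 of 15 reads in control library 1 and 16 of 18 in obesity library 1, and 0 to 4 reads elsewhere.

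The 2 enzymes were then set against each other within a library, which removes the library scaling. Of the reads of both genes, Th took 81.9%, 85.2%, 79.7% and 88.1% in the controls, in order of number, and 40%, 70.6%, 85.5% and 22.2% in the obesity libraries. The controls were close together, while the obesity libraries spread from Ddc in excess to the level of the controls. The lowest shares rest on few reads, 9 in obesity library 4 (Wilson 95% interval 6.32% to 54.7%) and 30 in obesity library 1 (24.6% to 57.7%). Of the Ddc reads, 16 of 18 in obesity library 1 and 14 of 15 in control library 1 were at the upstream site. The part of that site in the shares was not tested. The means were 83.7% ± 3.71 and 54.6% ± 28.7 (SD, n = 4), a difference of -29.2 percentage points with an exact permutation p of 0.114 (2-sided, 70 arrangements, smallest possible 0.0286). The share was lower in 3 of 4 pairs. With each library left out in turn, the difference ran from -39.5 points without obesity library 3 to -18.4 points without obesity library 4. The exact permutation p was 0.114 to 0.257 in 7 of these 8 cases. It was 0.0286 without obesity library 3, which has the share nearest to control, so that a smaller p follows from leaving it out. Across the 8 libraries, log2 CPM of Th and Ddc had a Pearson r of 0.24 and a Spearman rho of 0.31, given as a description.

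The other genes of the pathway were taken from lists of 53 genes, of which 25 were listed in the table. The lowest site total in the table was 30 reads over all libraries, so a gene without a row may still be expressed. By edgeR, 0 of the 25 genes passed an adjusted p of 0.1, with or without the block and also by the DESeq2 Wald test, and 3 had an unadjusted p under 0.05 (2 higher and 1 lower), against 5.11% of all genes. Their median log2 fold change was -0.11, with 11 above and 14 below 0, against a median of 0.00 over all 12255 genes. The groups overlapped in CPM for each of the 25, against 1.77% of all genes without overlap and lower in obesity and 1.68% higher, and their edgeR adjusted p-values ran from 0.92 to 0.997.

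Tetrahydrobiopterin, the cofactor of Th, is made and recycled by Pts, Spr, Qdpr and Pcbd1, 4 of 7 genes on that list with a row. Their log2 fold changes were -0.78, 0.53, 0.04 and -0.51. Spr, sepiapterin reductase, had 7.36 to 16.3 CPM in control and 12.9 to 23.5 CPM in obesity. Gch1, which opens the cofactor pathway, was not listed. Neither were Dbh and Pnmt, which carry dopamine on to noradrenaline and adrenaline.

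Slc18a2, the vesicular monoamine transporter that loads dopamine into vesicles, was the 1 listed gene of 5 for packaging and uptake. It gave 17, 13, 14 and 14 reads in the controls and 15, 22, 40 and 17 in the obesity libraries. Its difference on the log2 scale was 0.59 (SE 0.46, edgeR adjusted p 0.942), of opposite sign to Th, and obesity library 3 was the highest for both genes within its group. The dopamine transporter Slc6a3 was not listed under its symbol.

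Of 6 genes of dopamine breakdown 5 were listed, and the log2 fold changes included 0.57 for Maoa, 0.68 for Maob, 1.34 for Aldh2 and -2.37 for Akr1b1. Akr1b1, an aldose reductase, had 3, 15, 10 and 5 reads in the controls against 0, 4, 1 and 1 on the high fat diet, with an edgeR adjusted p of 0.92. Hdc, which makes histamine, was listed with 0 to 10 reads per library and a log2 fold change of -0.22, while the serotonin genes Tph2 and Slc6a4 were not listed.

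Of the proteins that bind or phosphorylate Th, 6 of 7 were listed. Their log2 fold changes included -0.20 for Ywhae, 0.08 for Ywhah, -0.23 for Ywhaz, 0.11 for Prkaca and -0.11 for Camk2a. Ywhae, a member of the 14-3-3 family that binds phosphorylated Th, was abundant, at 1078 to 4011 CPM in control, with the highest value of each group in the library numbered 1. The only dopamine receptor with a row was Drd2, the receptor through which dopamine neurons sense their own release, whose controls ranged from 0 to 14 reads and whose obesity libraries from 2 to 7 (log2 fold change -0.86, edgeR adjusted p 0.972).

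Of 17 transcription factors on the list, mostly of dopamine neurons, 7 had a row. Of these, 2 had a log2 fold change above 0 and 5 below. An edgeR unadjusted p under 0.05 was found for 2 higher and 0 lower, against 5.11% of all genes in either direction. Nr4a2, which drives Th transcription in midbrain neurons, gave 10, 4, 8 and 3 reads in the controls and 0, 2, 4 and 0 in the obesity libraries. It differed by -2.10 on the log2 scale (SE 1.16, edgeR adjusted p 0.92), and like Th and Akr1b1 it was lower in 4 of 4 pairs. The share of all genes lower in 4 of 4 pairs is not given here. Isl1 and Dlx1, factors of hypothalamic neurons, had log2 fold changes of -0.14 and -0.07. Creb1, a factor that binds the cAMP response element, stood at -0.47.

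**Figure D4:**
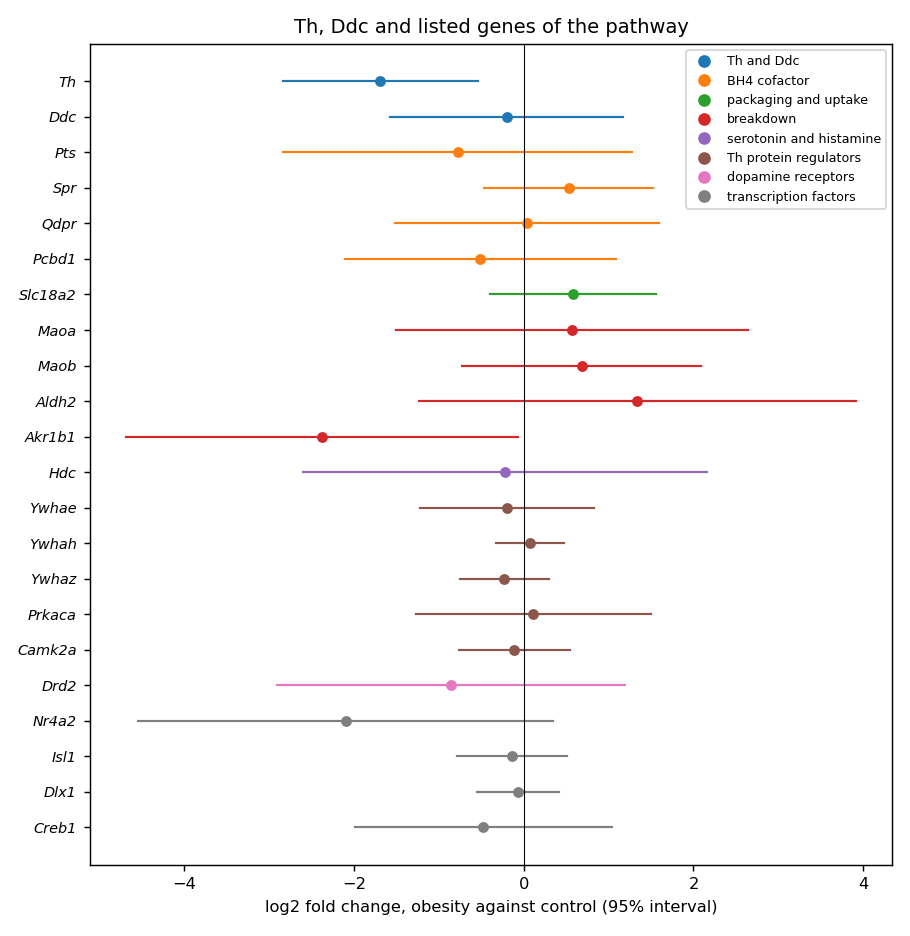
Log2 fold change of Th, Ddc and 20 of the 25 listed pathway genes (y axis), obesity against control, with 95% intervals from the fit without the block, coloured by role. Th lies at -1.69, and the intervals of all other genes shown but Akr1b1 span 0.

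Marker lists were read beside Th, because the tissue around the dissection could bring other Th neurons. The hypothalamus was represented by 12 of 16 markers, led by Avp, at a summed 1216 to 1663 CPM in control and 1024 to 1304 CPM in obesity. In order of number, the sums were 1216, 1314, 1554 and 1663 CPM in control and 1024, 1224, 1304 and 1086 CPM in obesity, lower in each pair. Of the 12, 5 had a log2 fold change above 0 and 7 below. An edgeR unadjusted p under 0.05 was found for 4, in opposite directions, against 5.11% of all genes. Groups did not overlap for 1.77% (lower) and 1.68% (higher) of all genes. The hormone genes Avp (log2 fold change -0.44) and Oxt (-0.74, groups without overlap) were lower in 4 of 4 pairs, while Crh (1.72, groups without overlap) and the transcription factor gene Sim1 (2.03) were higher, each with an edgeR adjusted p of 0.92. Of 12 markers of midbrain dopamine neurons 3 were listed, Slc18a2, Nr4a2 and Ret. The defining markers Slc6a3, En1, Pitx3 and Foxa1 were not listed under their symbols. With a lowest site total of 30 reads, their absence does not show that they were not expressed. LOC102548924 has a site between those of Clptm1l and Lpcat1, where GRCr8 places Slc6a3. Whether that site belongs to Slc6a3 was not tested. The 3 listed midbrain markers summed to 41.8, 24.1, 26 and 16 CPM in control, in order of number. In obesity they summed to 13.5, 24.4, 39.8 and 18.4 CPM. The log2 fold change was above 0 for Slc18a2 (0.59) and below 0 for Nr4a2 (-2.10) and Ret (-0.71). An edgeR unadjusted p under 0.05 was found for 0 of them. Each of the 3 had its highest obesity value in library 3, as Th did, for Nr4a2 from 4 reads. Their sum was lowest in obesity library 1, whereas Th was lowest in obesity library 4. Of hypothalamic dopamine neuron markers 7 of 8 were listed, at 167.4 to 233.6 CPM in control and 153.4 to 211 CPM in obesity, a sum of which Dlx1 was the largest share (116.04 CPM on average in control). Of these 7, 2 had a log2 fold change above 0 and 5 below. The somatostatin gene Sst was the 1 marker with an edgeR unadjusted p under 0.05. It stood at 15.9 ± 6.51 CPM in control and 6.20 ± 2.53 CPM in obesity (SD, n = 4). The groups did not overlap, so it was lower in 4 of 4 pairs (log2 fold change -1.35, SE 0.54, edgeR adjusted p 0.92). None of the noradrenergic markers (0 of 5) was listed, the only serotonin marker (1 of 4) was Slc18a2, at 8.70 to 12.0 CPM in control and 11.3 to 23.4 CPM in obesity, and both histamine markers (2 of 2), Hdc and Slc18a2, summed to 11.4 to 17.0 and 11.6 to 24.0 CPM. Anterior pituitary markers (3 of 7) spanned 17.9 to 55.9 CPM in control and 6.13 to 126.7 CPM in obesity, the highest in obesity library 2. The other sums overlapped between the groups as well, with thalamus (8 of 8 listed) at 252.4 to 443.3 CPM, oligodendrocytes (7 of 7) at 13323 to 22641 CPM and endothelium (4 of 4), a site of Ddc in brain capillaries, at 61.6 to 121.7 CPM over all libraries. All 7 oligodendrocyte markers had log2 fold changes below 0, and Mal, a myelin protein gene, was lower without overlap (-0.42, edgeR adjusted p 0.92). Across these lists 0 genes passed an edgeR adjusted p of 0.1, with or without the block. Of all genes, 0% passed without the block and 0.277% with it. The part of cell makeup in the Th values was not tested.

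The genes whose pattern was most like that of each enzyme were sought among genes with a mean of at least 20 reads per library, by Pearson r of log2 CPM over the 8 libraries. For Th, among 7207 genes, these were the long non-coding RNA gene LOC108352745 (r 0.981), LOC102548924, also non-coding (r 0.955), the RNA-binding protein gene Rbm11 (r 0.948), the pseudogene LOC102556301 (r 0.941) and Errfi1 (r 0.936), an inhibitor of EGF receptor signalling. All 5 had their highest obesity value in library 3 and their lowest in library 4, as Th did. As they were chosen by r with Th over both groups, this order and lower obesity levels follow from the choice. LOC102548924 gave 62, 95, 63 and 95 reads in the controls and 23, 19, 58 and 0 in the obesity libraries, where the log2 difference was -1.77 (SE 0.67, edgeR adjusted p 0.92). For Ddc, among 7208 genes, they were the phosphatase gene Dusp3 (r 0.965), the tubulin tyrosine ligase gene Ttl (r 0.958), Lysmd2 (r 0.946), the histone chaperone gene Nap1l4 (r 0.939) and Dmap1 (r 0.930). Each of these had its highest obesity value in library 1, as Ddc did. Dusp3, Ttl, Lysmd2 and Dmap1 also had their highest control value in library 1, as Ddc did, while Nap1l4 had it in control library 3. As all 5 were chosen by r with Ddc, a shared order follows from the choice. Of the 33 Ddc reads in the libraries numbered 1, 30 were at the upstream site. The r-values describe 8 libraries, which differed in depth and in their number of sites at 0 reads, and carry no test.

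**Figure D5:**
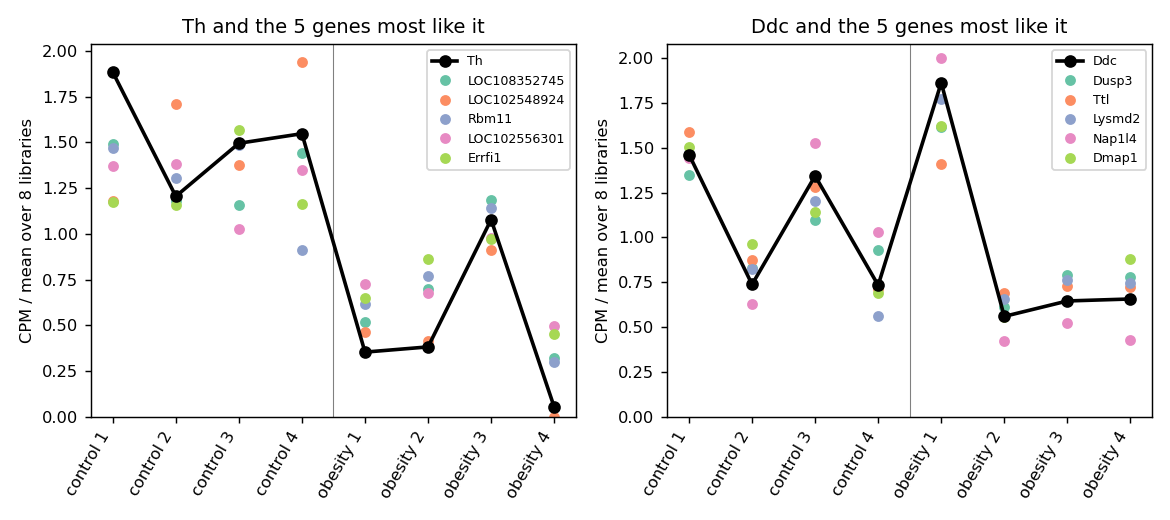
CPM divided by the mean of the gene over the 8 libraries, for Th (left) and Ddc (right, black lines) and the 5 genes most like each (coloured points). The Th-like genes are low in obesity libraries 1, 2 and 4, and the Ddc-like genes are highest among the obesity libraries in number 1.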

How the data were processed

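WTTS-seq libraries from the hypothalamus of 8 rats, 4 per group, were analysed. The authors deposited whole-number counts of mapped reads for each site and library. Per the labels, the authors used Bowtie2 2.2.3 and the Rnor_6.0 assembly. The site caller and its filters are not given in the sources used here. The paper linked to the series describes another exposure, so only the labels defined groups. A line without a site (1) held a column total and was left out. Sites with a gene (65913) were summed per gene over the strand with most of its reads.

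Sums and sites were tested with edgeR 4.0.16 (robust quasi-likelihood fit, TMM, R 4.3.3), with Benjamini-Hochberg adjustment over the whole table and a threshold of 0.1. SE is the fold change divided by the root of F. DESeq2 1.42.0, filterByExpr, sums over both strands, a non-robust fit, left-out libraries and a block were alternatives. Deviations of same-numbered libraries correlated at 0.259 to 0.381 (other numbers -0.21 to 0.078). As the former were all over 0.1, the number was used as the block of an alternative fit. The labels do not say what same-numbered libraries share, so values given without mention of the block are from the fit without it. Libraries differed by a chi-square of at least 2.86 per site, above the Poisson sampling noise of reads. The labels do not describe technical repeats, and p-values measure the spread between these samples. The code was tested on simulated counts.

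Always named were Th and Ddc, listed pathway genes, and the 5 genes most alike to each, except that some listed genes are not reported here singly. The members and lists were chosen with earlier results of these data known. Sequences are from RefSeq (GRCr8). No sequence or gene structure of Rnor_6.0 was used here.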

Additional observations from a re-analysis of the deposited data

Results flagged for a closer look

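Within each group of 4, the highest and lowest values were compared with the nearest other by Dixon's 95% limit. The 50 checks took CPM of Th, Ddc, the Ddc sites and the pathway genes reported singly, and the Th share of reads of both genes. Of these, 6 singled out a library, where chance gives about 2.5 for independent, normally distributed values. Low read counts depart from that. The flags of Ddc and its upstream site in obesity library 1 share 16 reads, so 6 against 2.5 is no test of an excess. Obesity library 1 had 13.5 CPM of Ddc, against 4.06 to 4.76 in the other obesity libraries. At the upstream Ddc site it had 9.06 CPM, here relative to the TMM-adjusted total of all sites, against 0 in the others. It also had 3384 CPM of Ywhae, against 1207 to 1415. Qdpr stood at 15.4 CPM in control library 3, against 2.83 to 4.56 in the other controls. Pcbd1 stood at 16.2 CPM in obesity library 2, where the others did not exceed 4.51. Maoa was at 1.76 CPM in obesity library 3, from 3 reads, against 3.76 to 4.08.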

How the results depend on the processing

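The Th difference stayed below 0 in all 19 alternatives and passed an adjusted p of 0.1 in 4, all with the replicate block: with all libraries (log2 fold change -1.98), and without both libraries numbered 1 (-1.81), 2 (-2.09) or 3 (-2.66). Leaving out single libraries gave -2.55 to -1.31 for Th and -0.77 to -0.01 for Ddc, -2.62 to -1.35 for the Th site, -0.55 to 0.14 for the 3′-most and -5.37 to 0.77 for the upstream Ddc site. The sign of the 3′-most site turned without control library 3 or obesity library 1, and that of the upstream site without control library 1, obesity library 3 or obesity library 4. The Th share of the reads of both enzymes differed by -39.5 to -18.4 points, and the Simes p of Ddc site usage ran from 0.0258 to 0.924. The pairing by number changed no other call. Ddc and its sites could not be fitted under filterByExpr, which removed them. The fit without both libraries numbered 1 and without the block was chosen after seeing the data (-1.46 for Th, -0.58 for Ddc). With 5 to 18 Ddc reads per library, depth limits every statement on Ddc and its sites. For Th, obesity libraries 1, 2 and 4 rest on 12, 12 and 2 reads.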

Other observations

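The site of LOC102548924, second most like Th in pattern, lies on chromosome 1 (32321569 to 32321598, minus strand, Rnor_6.0), and its neighbours in the table on that strand are a Clptm1l site 26.6 kb and an Lpcat1 site 58.4 kb away. In the GRCr8 annotation, 2 genes lie between Clptm1l and Lpcat1, LOC134484979 and Slc6a3, the dopamine transporter, which is on the minus strand. Slc6a3 has no row of its own in the table. Whether the site belongs to Slc6a3 was not tested, since an annotation of Rnor_6.0 was not used here. These genes were looked up after the values were seen. As single site, its log2 fold change was -1.83 (SE 0.74, edgeR adjusted p 1).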
